A study of Bos taurus and Bos indicus x Bos taurus with 938 samples.

Results

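Blocks 10 and 11 are adjoining stretches of the numbered regions in a table of open-chromatin calls from single bovine blastomeres, the cells of a cleaving embryo. Block 10 runs from row V93301 to V101200 and block 11 from V101201 to V109600, and the rows described here are those open in 98 or fewer blastomeres, so members were selected on the number of blastomeres in which a row was open. This left 7314 of the 7900 rows of block 10 and 7963 of the 8400 rows of block 11, which are 15277 regions or 5.04% of all regions of the table. The rows carry running numbers only, with no coordinates and no genes, so neither their place in the genome nor their sequence is shown. The blocks themselves were drawn in an earlier treatment of these data, chosen by which regions were open in the same blastomeres, and these were singled out among them for their many calls per region.

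The embryos were made by in vitro fertilisation (IVF), in which oocytes matured in culture were fertilised with thawed semen, or by replacing the nucleus of the oocyte with that of a somatic cell (somatic cell nuclear transfer, SCNT). The organism label is Bos indicus x Bos taurus for all IVF libraries and Bos taurus for all SCNT libraries, and the title prefixes are 15286 and 15287 for IVF and 15243 and 15244 for SCNT. Embryo type can therefore not be told apart from organism label or prefix. The groups compared are embryos of 2, 4 and 8 cells, with 67, 22 and 14 IVF embryos and 43, 25 and 21 SCNT embryos, and embryos of other cell numbers are only described. The age of the embryos and the kind of donor cell were not used here.

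ATAC-seq marks open chromatin by letting Tn5 transposase insert sequencing adapters where DNA is accessible. A single nucleus holds few copies of each locus and few of them are recovered, so that one blastomere shows only a small and partly random sample of its open regions. Calls from many rows are therefore summed before blastomeres are compared. The first cleavages of a bovine embryo run largely on maternal stores, and its own genome becomes widely transcribed around the 8-cell stage.

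Every value of the table is 0 or 1, read here as closed or open. The number of open calls over V1 to V274100 stands in for depth, which is unknown in reads, with a median of 6283 and a highest value of 114049 per blastomere, and 747 blastomeres had at least 1000. Among blastomeres with at least 1000 such calls, the median was 7733 in IVF and 3672 in SCNT 2-cell embryos, 7458 and 3634 at 4 cells and 11680 and 5958 at 8 cells. The link of columns to libraries is an inference from the column numbers. A blastomere's type rests on the run of numbers it falls in, while its embryo and cell number rest also on an assumed offset. No columns of the table were identical to each other.

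Members of both blocks were open slightly more often than other rows of the same kind, which is what they were picked for and is given without a test. A member was open in 25.1 blastomeres on average in block 10 and in 25.6 in block 11, against 23.1 for the 249224 other rarely open rows of V1 to V274100. The medians were 19, 20 and 18 blastomeres. Members ranged from 5 to 98 open blastomeres in block 10 and from 4 to 98 in block 11, with 9 and 4 members at exactly 98. Just outside the limit, 11 rows of block 10 and 6 of block 11 were open in 99 blastomeres.

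Calls were not spread evenly over block 10. Calls per member rose from 21.4 in its first 1975 rows to 22.8, 25.6 and 31.4 in the next runs of that length, and the share of rows that were rare enough to be members fell from 96.2% in the first run to 86.3% in the last. In bins of 100 rows the mean ran from 13.7 (V93801 to V93900) to 39.01 (V101001 to V101100). Block 11 was flatter, with 25.1, 24.2, 27.4 and 25.7 calls per member over successive runs of 2100 rows. IVF blastomeres gave 62.9% of the calls in block 10 and 64.4% in block 11, against 62.6% in the other rarely open rows. Members open in IVF blastomeres alone numbered 63 in block 10 (0.861%) and 99 in block 11 (1.24%), against 1.09% of the other rarely open rows. Those open in SCNT blastomeres alone numbered 11 (0.150%) and 3 (0.0377%), against 0.0979%. Block 10 thus lay below the other rows for IVF alone and above them for SCNT alone, and block 11 the other way round. These are small counts, and the differences were not tested.

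In a single blastomere only a few members of a block were open. The median was 2.18% of the block 10 members in IVF 2-cell blastomeres, which is 159.5 calls, and 1.16% or 84.5 calls in SCNT 2-cell blastomeres. At 8 cells it was 4.18% in IVF and 1.54% in SCNT. Block 11 medians were 2.23% and 0.923% at 2 cells and 3.42% and 1.44% at 8 cells. These levels follow the total calls of the libraries, so the share of each blastomere's calls over V1 to V274100 that lay in a block's members was used for comparison and averaged over the blastomeres of an embryo. The share itself still rose with total calls in some groups. Spearman's rho between them was 0.310 for block 10 and 0.401 for block 11 in IVF 8-cell blastomeres. It was 0.113 and 0.249 in SCNT 8-cell ones, and -0.0518 and 0.0869 in IVF 2-cell ones.

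The share of block 10 was lower in SCNT than in IVF embryos at 8 cells, and this was the only one of 18 share comparisons to pass. Over the 14 IVF embryos it ran from 1.95% through a median of 2.59% to 3.79%, and over the 21 SCNT embryos from 1.56% through 2.11% to 2.82%. The groups overlapped, but 8 SCNT embryos lay below every IVF embryo and 3 IVF embryos lay above every SCNT embryo. The mean of IVF embryos was 2.64 ± 0.540% (SD, n = 14) against 2.13 ± 0.386% (SD, n = 21) for SCNT embryos, a difference of -0.510 percentage points (permutation test over embryos, p = 0.00206, Benjamini-Hochberg adjusted p = 0.0371).

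That difference was close to the threshold. It kept its direction when each of the 35 embryos was left out in turn, with values from -0.563 to -0.422, but the adjusted p passed in 21 and not in 14 of these, the highest being 0.0972 without the IVF embryo of blastomere_612A. Embryos are named here by a blastomere's label, the number being that of the embryo and the letter that of the blastomere. With blastomeres of at least 5000 calls it was -0.423 (permutation test, p = 0.0155, adjusted p = 0.279). It was -0.896 without the blastomeres that lacked the block, all of which at 8 cells belonged to 1 IVF embryo (permutation test, adjusted p = 0.0268). Leaving them out can by construction only raise the IVF mean, and it leaves that embryo, of blastomere_619A, with a pair of blastomeres of at least 2000 calls, at 6.03% and 12.2%. Total calls differed between these groups as given above, and the part of depth in the result beyond these values was not tested.

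Differences between types in either direction were also seen elsewhere in the table, and most of these were higher in SCNT. When the rarely open rows of 31 other windows of 7900 rows were put through the same comparison at 8 cells, 7 windows had an unadjusted permutation p under 0.05, of which 2 were lower in SCNT, and 2 had a p as small as that of block 10. The difference relative to the IVF mean was -19.3% for block 10 and ran from -17.5% to 35.0% over these windows, with a median of 0.825%. The relative difference of block 10 lay below that of each of these windows, and its p was not the smallest.

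Block 11 shares did not differ past the threshold between types at 8 cells. The share ran from 0.466% through 2.66% to 3.43% in IVF and from 1.74% through 2.36% to 2.92% in SCNT embryos, with means of 2.53 ± 0.704% (SD, n = 14) and 2.30 ± 0.329% (SD, n = 21). The difference was -0.233 percentage points (permutation test, p = 0.204, adjusted p = 0.828). The lowest IVF value is that of the embryo of blastomere_621A, described further on.

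At 2 cells the shares were far more scattered than at 8 cells. Block 10 ran from 0.0838% through 2.24% to 7.04% over 66 IVF embryos and from 0.777% through 2.27% to 14.9% over 35 SCNT embryos. The means were 2.59 ± 1.54% (SD, n = 66) and 2.92 ± 3.02% (SD, n = 35) and did not differ past the threshold (permutation test, adjusted p = 0.828). The SCNT mean rests on 2 embryos at 14.4% and 14.9%, and the difference of 0.328 percentage points turned to -0.0495 without a single blastomere.

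Block 11 at 2 cells ran from 0.0985% through 2.70% to 10.1% in IVF and from 0.486% through 2.33% to 5.23% in SCNT embryos. The means were 2.90 ± 1.66% (SD, n = 66) and 2.27 ± 0.848% (SD, n = 35), and the difference of -0.632 percentage points did not pass (permutation test, p = 0.0350, adjusted p = 0.315). Without the IVF blastomeres that lacked the block it was -0.941 and passed (permutation test, adjusted p = 0.0269), which by construction raises only the IVF mean.

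At 4 cells neither block differed between types past the threshold. The block 10 mean was 2.41 ± 0.698% (SD, n = 20) for IVF against 2.22 ± 1.01% (SD, n = 24) for SCNT embryos (permutation test, adjusted p = 0.828). For block 11 the SCNT mean of 2.31 ± 0.453% (SD, n = 24) lay below the IVF mean of 2.64 ± 0.844% (SD, n = 20), again without passing (permutation test, adjusted p = 0.66).

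**Figure D1:**
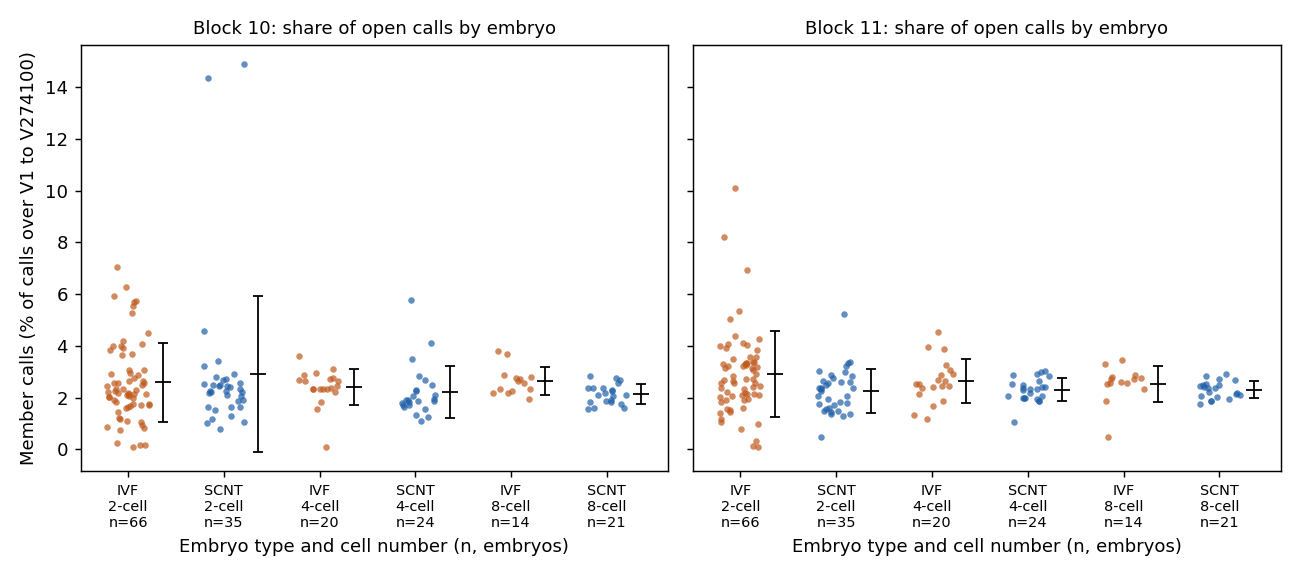
Share of open calls in block 10 (left) and block 11 (right) for each embryo, in percent of its blastomeres' calls over V1 to V274100, by type and cell number, with the mean and SD as black bars. SCNT 8-cell embryos lie between 1.56% and 2.82% in block 10 and IVF 8-cell embryos between 1.95% and 3.79%, and 2 SCNT 2-cell embryos stand at 14.4% and 14.9%.

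No stage comparison within a type passed in either block. The largest, block 10 in SCNT embryos of 8 against 2 cells, was -0.782 percentage points (permutation test, adjusted p = 0.828), and -0.404 without the SCNT 2-cell blastomere of highest block 10 share. Within prefix 15244 alone it was -0.0288 (exact permutation test, n = 9 and 9, p = 0.919). Within prefix 15243 it was -0.997 (permutation test, p = 0.307). In IVF embryos the 8-cell minus 2-cell difference of block 10 was 0.0560, and within prefix 15287, which holds all IVF 8-cell embryos but only 3 of 2 cells, it was -1.27 (exact permutation test, n = 14 and 3, p = 0.0559). The test of whether the 8-cell minus 2-cell difference depends on type did not pass in block 10 (SCNT minus IVF -0.838, or -0.460 without that blastomere, permutation test, adjusted p = 0.418) or block 11 (0.399, adjusted p = 0.418).

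In some blastomeres, most of them from IVF embryos, a block was nearly empty. Relative coverage is the number of member calls over the number expected from the blastomere's total and each row's overall frequency, and a block is called absent where it is under 0.1 in a blastomere with at least 2000 calls. Of 343 IVF blastomeres of that depth 30 lacked block 10 and 27 lacked block 11, and of 338 SCNT blastomeres 1 and 2 did. Of these 31 and 29 blastomeres, 7 lacked both blocks.

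At 2 cells, block 10 was absent in 16 IVF blastomeres (13.6%, exact 95% interval 7.95 to 21.1). It was absent in none of 42 SCNT blastomeres (exact 95% interval 0 to 8.41). The 16 cases came from 16 embryos. Per embryo, the percent of blastomeres without block 10 was 0 in 30 SCNT embryos and 14.6 ± 27.6% (SD, n = 65) in IVF embryos (permutation test over embryos, p = 0.00747, adjusted p = 0.0448). It passed with any 1 embryo left out, at an adjusted p of up to 0.0475, and not with blastomeres of at least 5000 calls, where 14 SCNT embryos were left (difference -20.4 percentage points, permutation test, adjusted p = 0.221). It also did not pass when all rows of the block were used (-6.15, adjusted p = 0.306).

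At the same stage 9 IVF blastomeres lacked block 11 (7.63%, exact 95% interval 3.55 to 14.0), from 8 embryos, and none of 42 SCNT ones did. The difference per embryo of -7.69 percentage points did not pass (permutation test, adjusted p = 0.210). At 4 cells block 10 was absent in 5 of 62 IVF and 1 of 58 SCNT blastomeres and block 11 in 3 and 2. At 8 cells block 10 was absent in 3 of 89 IVF blastomeres, all of 1 embryo, and block 11 in 7, from 2 embryos, while neither was absent in any SCNT blastomere, which allows a share of up to 2.42%. None of these 4 comparisons passed (permutation tests, adjusted p from 0.306 to 0.932). These intervals cover counting error only and take blastomeres as independent.

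**Figure D2:**
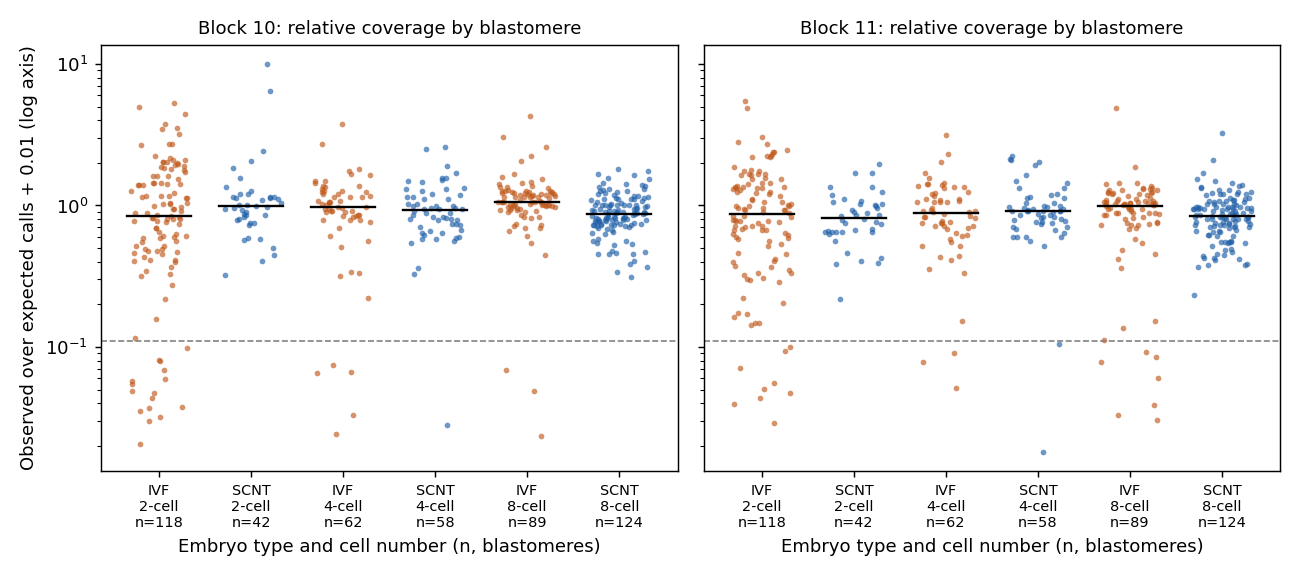
Relative coverage of block 10 (left) and block 11 (right) in each blastomere with at least 2000 calls, on a log axis with 0.01 added, by type and cell number; black lines are medians and the dashed line marks 0.1. Points under the dashed line number 16, 5 and 3 for block 10 in IVF embryos of 2, 4 and 8 cells, and 0, 1 and 0 in SCNT embryos.

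The limits of block 10 were sharp in blastomeres that lacked it. In the 24 blastomeres that lacked only block 10, the last 100 rows before it held 0.942 of the expected calls, its first 100 rows 0.130 and the next 100 rows 0.0495. The step back was as short, from 0.0296 of the expected calls in the last 100 rows of block 10 to 0.900 in the first 100 rows of block 11. These blastomeres were picked for lacking block 10 and not block 11, and the limits were drawn from these data. Both steps are therefore a description only. The first and the second 0.5 of a block's rows rose and fell together over all blastomeres of at least 2000 calls, with a Pearson r of log2(relative coverage + 0.1) of 0.845 in block 10 and 0.808 in block 11; the blocks were drawn from such sharing, so this is a description only.

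The outer limits of block 11 are less exact than those of block 10. In the 22 blastomeres that lacked only block 11, its first 100 rows held 0.562 of the expected calls and its next 100 rows 0.0450. Its last 100 rows, V109501 to V109600, held 1.03 of the expected calls, against 0.107 in the 100 rows before them. The rows at both ends of block 11 were thus open in blastomeres in which the rest of the block was not.

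**Figure D3:**
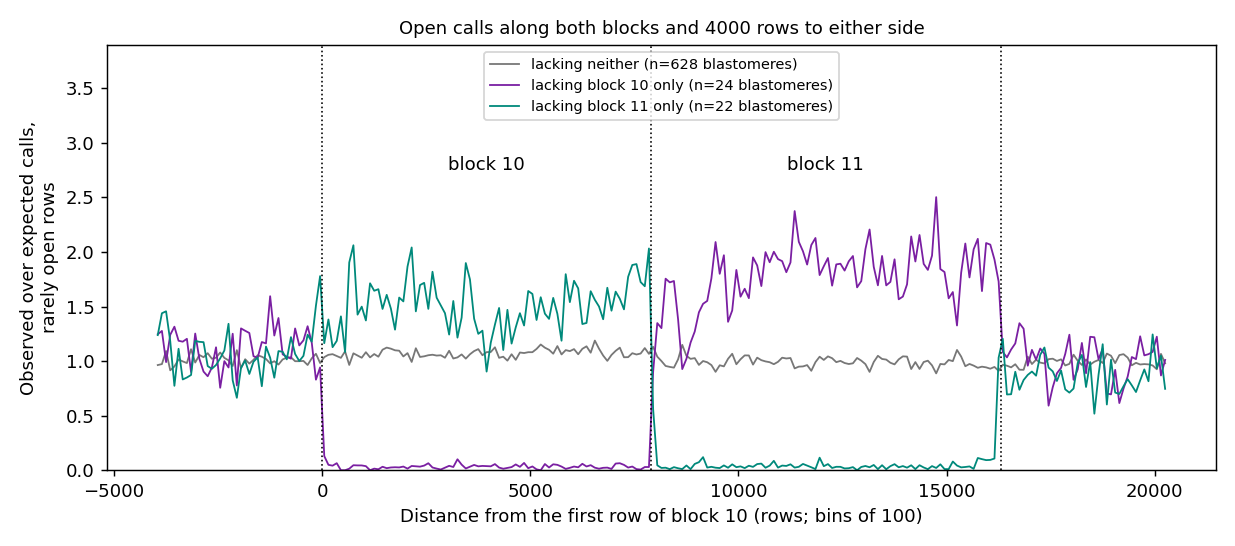
Observed over expected calls in rarely open rows along both blocks, in bins of 100 rows by distance from the first row of block 10, for blastomeres lacking only block 10, only block 11, or neither; dotted lines mark the limits of the blocks. Each class falls to near 0 within the block it lacks and returns near or above 1 within about 100 rows of its limits.

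Over all blastomeres the blocks varied largely apart from each other, but not in every group. Over the blastomeres with at least 2000 calls the Pearson r between the log2 relative coverage of both was 0.0396 and Spearman's rho 0.183. By group, r ran from -0.154 in IVF 2-cell to 0.572 in SCNT 4-cell blastomeres, with 0.267 in SCNT 8-cell ones. These values are a description of libraries that share their depth. Blastomeres lacking only block 10 had a median relative coverage of 1.21 in block 11 and 0.893 (range 0.0132 to 5.79) in the 4000 rows before block 10. Those lacking only block 11 had a median of 1.18 in block 10 and 0.699 (range 0.0162 to 1.76) in the 4000 rows after block 11. These classes were defined by the neighbouring block being present, so its values in them are a description. Low coverage reached past the outer limits in some of these blastomeres.

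A short run of rows inside block 10 was open at about the expected rate in blastomeres that lacked the block. Rows open in more than 98 blastomeres are not members, and in the 31 blastomeres lacking block 10 such rows held 1293 calls where 6033 were expected. Of these calls, 994 lay in 39 consecutive rows, V95703 to V95741, where 1043.2 were expected, a ratio of 0.953. The other commonly open rows of the block held 299 calls of 4990 expected, a ratio of 0.0599. Row V95719, open in 698 of all blastomeres, was open in 30 of the 31, and so were V95715, V95722, V95726 and V95734.

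Block 11 had no such run. In the 29 blastomeres lacking it, its 437 commonly open rows held 0.0818 of the 3167 expected calls, and only V106628, open in 25 of them, and V103422, open in 23, were open in at least 0.5 of them. These rows were picked out after their values had been seen.

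In IVF 2-cell embryos the sisters of blastomeres without block 10 mostly had more of it than expected. Both sisters had at least 2000 calls in 53 IVF embryos, and 1 of them lacked block 10 in 13 embryos and both in none. The other sister then had a relative coverage of 0.107 to 4.94 with a median of 1.88, above 1 in 11 of 13 and above 1.5 in 9. For block 11, 1 sister lacked it in 6 embryos and both in 1, and the other sister ranged from 0.160 to 2.44 with a median of 1.97, above 1 in 5 of 6. In 14 and 13 of the 53 IVF embryos, for block 10 and block 11, one sister was under 0.5 and the other above 1.5. This held for 0 and 1 of 12 SCNT embryos; the difference between types was not tested.

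Across the 53 IVF embryos, sisters had weakly negatively correlated block 10 values, with the rank correlation passing and Pearson's r missing the threshold. Pearson's r of their relative coverage was -0.301 (permutation test, p = 0.0280, adjusted p = 0.0559) and Spearman's rho was -0.312 (adjusted p = 0.0457). Without the 2 embryos farthest from the median neither passed, with r at -0.249 and rho at -0.269 (permutation tests, adjusted p = 0.155 and 0.116). Without the 13 embryos with an absent block r was -0.0618 and rho 0.0317 (permutation tests, p = 0.711 and 0.846). The relation was thus not seen without those embryos. They are picked by a low value of a sister, so leaving them out can by itself weaken a negative correlation. For block 11 r was -0.201 (permutation test, adjusted p = 0.133) and rho -0.258 (adjusted p = 0.0624), and r without the 2 farthest embryos was -0.111. Within prefix 15286, with 50 pairs, r was -0.348 for block 10 (adjusted p = 0.0266) and -0.186 for block 11 (adjusted p = 0.173). Prefix 15287 has only 3 pairs and gives no value. In the 29 pairs with at least 5000 calls in both sisters, r was -0.527 and -0.566 (permutation tests, adjusted p = 0.00318 and 0.00252). Sister shares are drawn from one embryo but from separate libraries of different depth.

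**Figure D4:**
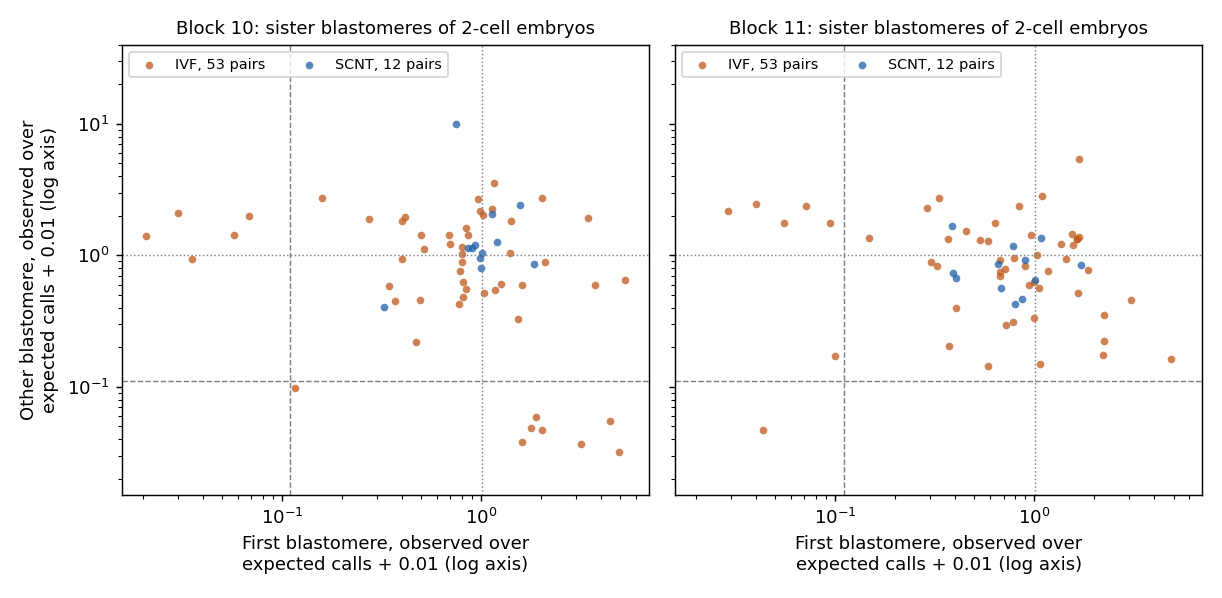
Relative coverage of the first against the other blastomere of 2-cell embryos, for block 10 (left) and block 11 (right), on log axes with 0.01 added; dashed lines mark 0.1 and dotted lines 1. Of 53 IVF pairs, 13 have 1 sister without block 10 and 6 have 1 sister without block 11, and none of 12 SCNT pairs does.

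Single embryos show how far sisters diverged; those given here were chosen after their values had been seen. The IVF 2-cell blastomere_565A had 7.91% of its 21509 calls in block 10 and 37 calls or 0.172% in block 11, relative coverages of 3.17 and 0.0614. Its sister blastomere_565B had 32 of its 48692 calls in block 10 (0.0657%, relative coverage 0.0268) and 3184 in block 11 (6.54%, 2.37), so that each sister lacked the block that the other held in excess. The IVF 2-cell embryo of blastomere_536A showed the same layout. That blastomere had 1274 block 10 and 24 block 11 calls (relative coverage 1.77 and 0.0298), and blastomere_536B had 6 and 427 (0.0384 and 2.44).

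In other IVF 2-cell embryos the exchange was found in one block or in one direction. Blastomere_505A lacked both blocks, with 3 and 6 calls of 281 and 315 expected, and its sister blastomere_505B had a relative coverage of 1.39 and 2.17. Blastomere_558B had 20 block 10 calls where 905 were expected and 2326 block 11 calls (relative coverage 0.0221 and 2.29), and its sister blastomere_558A stood at 4.94 and 0.278. Blastomere_558B had 36264 calls in all and blastomere_505A had 12242, and the part of depth in absence was not tested.

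The deepest library of the table was among those lacking block 10. The IVF 4-cell blastomere_590A had 114049 calls, of which 69 lay in block 10, where 3016 were expected, and 4749 in block 11, where 3390 were expected. It had 59.6% of all block 11 members open, the highest share of members in the 6 groups. Its sister blastomere_590B lacked both blocks, and blastomere_590C and blastomere_590D had relative coverages of 0.817 and 1.74 in block 10 and 1.10 and 1.04 in block 11.

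In some IVF embryos of later stages block 11 was low in most blastomeres. In the 8-cell embryo of blastomere_621A the relative coverage of block 11 ran from 0.0203 to 0.532 over all 8 blastomeres and was under 0.1 in 4, while block 10 ran from 0.529 to 1.44. The highest block 11 value came from its shallowest blastomere, with 2647 calls, which also had the lowest block 10 value, 0.529. In the 7-cell embryo of blastomere_622A block 11 was under 0.1 in 6 of 7 blastomeres and at 0.109 in the other, while block 10 ran from 0.819 to 1.40.

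The IVF 8-cell embryo of blastomere_619A differed from them, with large gaps between its blastomeres. Block 10 had a relative coverage of 0.0392, 0.0585 and 0.0136 in blastomeres A, C and G and of 2.59 and 4.27 in B and F. Block 11 was absent in A, B and F and stood at 0.991 in C and 4.90 in G. None of the 5 blastomeres of this embryo with values therefore held both blocks at the expected level, and its other blastomeres were not measured here. The IVF 4-cell embryo of blastomere_530A was alike in that this blastomere lacked block 10 and held block 11 at 3.12, while blastomere_530C lacked block 11 and held block 10 at 3.78.

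The single SCNT embryo with an absent block was the 4-cell embryo of blastomere_89C. This blastomere had 2 and 1 of its 5722 calls in blocks 10 and 11, relative coverages of 0.0182 and 0.00813. Its sister blastomere_89A stood at 0.657 and 0.0951, and blastomere_89B at 1.46 and 2.21.

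**Figure D5:**
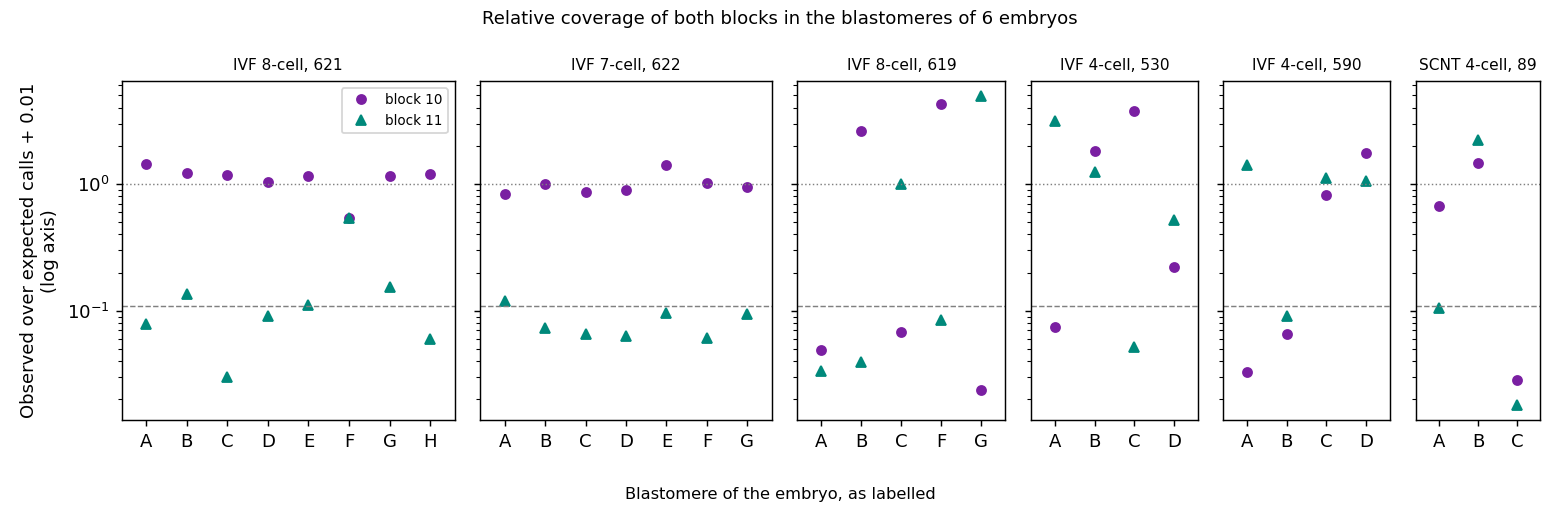
Relative coverage of block 10 (circles) and block 11 (triangles) in each blastomere with at least 2000 calls of 6 embryos, on a log axis with 0.01 added; dashed lines mark 0.1 and dotted lines 1. Block 11 is under 1 in every blastomere shown of the embryos of blastomere_621A and blastomere_622A, and blocks 10 and 11 take opposite extremes in blastomeres of the embryos of blastomere_619A and blastomere_530A.

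Blastomeres of 2 SCNT 2-cell embryos had very high block 10 coverage. Blastomere_85A had 14.4% of its 4090 calls in block 10 (relative coverage 6.44), and blastomere_86B had 28.1% of 2116 (relative coverage 9.98). Block 11 was not raised in them, at 0.947 and 0.553. The sister of the second stood at 0.738 in block 10, and the sister of the first had under 1000 calls, too few for relative coverage.

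Blastomeres of an embryo differed most in IVF 2-cell embryos. On the log2(relative coverage + 0.1) scale the SD within embryos was 1.59 in block 10 and 1.32 in block 11 over 53 IVF 2-cell embryos, and the SD of the embryo means was 0.753 and 0.760. In 12 SCNT 2-cell embryos the SD within embryos was 0.803 and 0.562. At 8 cells it was 0.680 and 0.663 in 14 IVF embryos and 0.414 and 0.514 in 21 SCNT embryos. Relative coverage lay between 0.5 and 1.5 in 44.1% of IVF 2-cell blastomeres for block 10, against 76.2% in SCNT ones, and in 86.5% and 86.3% at 8 cells. These spreads are given without a test.

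Single members were tested with a quasi-Poisson score test across all regions that were open in at least 10% of embryos. Among members, 2103 of block 10 (28.8%) and 2529 of block 11 (31.8%) reached that level in the 2-cell comparison, and they were open in more blastomeres (means of 48.8 and 46.6) than those that did not (15.6 and 15.8). In SCNT against IVF embryos of 8 cells, 7 of 2105 block 10 members were lower and 0 higher in SCNT, and 4 of 2530 block 11 members were lower and 3 higher (limma-moderated test, adjusted p under 0.05). Of all regions tested 1.17% were called, 0.576% lower and 0.591% higher. The members' counts are 0.333% and 0.277%, below that background. The background holds commonly open regions, however, which members exclude by rule. When only regions open in at least 25% of embryos were tested, 7.66% of all regions were called. The rates are therefore not of like rows, and whether members differ from other rarely open rows in this was not tested. The median log2 ratio was -0.26 over block 10 members and -0.06 over block 11 members, against 0.02 over all regions tested.

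The block 10 members called lower in SCNT 8-cell embryos were close to empty there. V93522 was open once in 21 SCNT embryos, where 8.39 calls were expected, and 32 times in 11 of 14 IVF embryos, where 12.1 were expected (log2 ratio -4.47, SE 1.47, limma-moderated adjusted p = 0.0193). V98246 had 0 calls in SCNT and 28 in 10 IVF embryos, and was at least 6.38-fold lower in SCNT against a floor of 3 calls over the group (adjusted p = 0.0203). V99751 had 2 calls in SCNT and 28 in 12 IVF embryos (log2 ratio -3.29, SE 1.06, adjusted p = 0.0387). No block 10 member was called higher in SCNT by this test, though 40.6% of those tested had a higher ratio there.

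Block 11 had members called in both directions at 8 cells. V109499 was open 22 times in 13 SCNT embryos and 2 times in IVF embryos (log2 ratio 3.97, SE 1.09, limma-moderated adjusted p = 0.00728), and V109478, 21 rows before it, had 12 calls in 11 SCNT embryos and 1 in IVF embryos (4.15, SE 1.502, adjusted p = 0.0391). V108738 had 13 calls in 12 SCNT embryos and 0 in IVF embryos, at least 6.45-fold higher (adjusted p = 0.0283). Lower in SCNT were V106384 with 0 against 22 calls, at least 5.04-fold (adjusted p = 0.0367), V103995 with 1 against 25 and V102229 with 2 against 27 (adjusted p = 0.0391 and 0.0415). The remaining one, V101859 with 3 against 31 calls, is named outside the rule of 3 per direction.

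No member was called between types at 2 or 4 cells. At an unadjusted p under 0.05 there were 51 of 2103 block 10 and 35 of 2529 block 11 members at 2 cells, where 3.33% of all regions were, and 46 of 2102 and 43 of 2526 at 4 cells, where 3.86% were. The score test without its exact limit also called 0. Over all regions 0.022% were called at 2 cells and 0.0011% at 4 cells. SCNT embryos of 8 against 2 cells likewise had 0 members called, with 39 of 2096 and 20 of 2519 at an unadjusted p under 0.05, against 2.32% of all regions, and 0.0% of all regions called.

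IVF embryos of 8 cells differed from those of 2 cells in more members, at or below the rate of the whole table. In block 10, 8.17% of the 2105 members tested were higher and 0.903% lower at 8 cells, together 9.07%, and in block 11, 94 of 2530 were higher and 40 lower, together 5.30%. Over all regions tested, commonly open ones included, 9.53% were called, 7.47% higher and 2.06% lower. These comparisons use the same 14 IVF 8-cell embryos as the type comparison at 8 cells. Nearly all IVF 2-cell embryos have prefix 15286 and all 8-cell ones have 15287, so stage and prefix cannot be told apart here.

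Members with the smallest p in that comparison again had few or no calls in the lower group. The higher group had calls in only a part of its embryos, such as 18 of 66 for V97570. V97483 of block 10 had 31 calls in 10 of 14 embryos of 8 cells and 0 in 66 embryos of 2 cells, where 13.8 were expected, and was at least 12.6-fold higher (limma-moderated adjusted p = 5.154e-05). V100999 had 22 against 0 calls and V98707 26 against 2 (adjusted p = 0.000279 and 0.000329). Lower at 8 cells were V97570, V93567 and V95038, with 0, 0 and 2 calls against 18, 21 and 23 (adjusted p from 0.00692 to 0.00961). In block 11 the leading members were V101479, V108564 and V103305, with 32, 24 and 28 calls against 3, 1 and 3 (adjusted p from 0.000157 to 0.000345). V106340, V109240 and V102391 of block 11 were lower, each with 0 calls at 8 cells against 25, 18 and 16 (adjusted p from 0.00337 to 0.0117). V107404 and V100164, which earlier results of these data had named, are open in more than 98 blastomeres and are not members.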

How the data were processed

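Single-blastomere ATAC-seq libraries were used from a deposited table of 302830 regions by 819 columns. Per the labels' protocols each blastomere was lysed and tagged in its own tube with its embryo recorded, and the tools listed, per the submitters' processing notes, are Bowtie2 2.2.6, bedtools and FastQC 0.10.1, with no role stated. The genome build, the definition of a region and the rule for an open call were not given in the sources used here. All deposited values are 0 or 1; they are neither read counts nor a score. The 4 runs of column numbers were taken as the 4 title prefixes (220, 201, 196 and 202 columns), an inference; of the 938 libraries in the labels, 119 are matched by no column and are not analysed here.

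The members, blocks and tests were chosen with earlier results of these data known. Shares use blastomeres with at least 1000 calls over V1 to V274100. Expected calls follow 1 minus the exponential of minus a blastomere factor times a region factor, fitted in 12 iterations to blastomeres of the 6 groups; absence needs at least 2000 calls. The embryo was the replicate, and whether embryos came from separate collections is not given. Groups were compared by two-sided permutation tests (100000 resamples, exact enumeration for small groups) with Benjamini-Hochberg adjustment over 18 share, 6 absence, 2 interaction and 2 sister tests. Regions open in at least 10% of embryos with 1000 or more calls were tested on observed and expected calls per embryo with a quasi-Poisson score test. Its dispersion was moderated with limma 3.58.1 (R 4.3.3) and not let below 1, its p not let below an exact binomial p, and p adjusted over all regions tested. In each region comparison the text names, per block, the called members of smallest adjusted p, at most 3 per direction. On simulated data for SCNT against IVF at 8 cells (106933 regions) the region test called 3 of 51 regions raised 4-fold, 0 of 50 raised 2-fold, 0 of 46 lowered to 0.5, 0 of 53 lowered to 0.25 and 0 of 106733 left unchanged. In the simulation all blastomeres of an embryo shared a random factor for each stretch of rows. It did not carry the spread of block coverage between blastomeres of an embryo, or absent blocks. Its rates may therefore differ from those of the real data. Python 3.11.15, numpy 2.4.6 and scipy 1.17.1 were used.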

Additional observations from a re-analysis of the deposited data

Results flagged for a closer look

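Small groups of embryos outside the comparisons were checked for a value far from the rest of its group, in 16 sets of 4 to 10 embryos, and 5 were found; chance flags about 1 in 20. Block 11 made up 0.752% of calls in the IVF 3-cell embryo of blastomere_581A, against 2.27% in the next of 6 embryos. The IVF 6-cell embryo of blastomere_587A had the highest block 11 share of 6 embryos, 4.66% against 2.76%, and the highest block 11 relative coverage, 1.74 against 1.04. The SCNT 5-cell embryo of blastomere_104A had a block 11 share of 2.72%, against 2.07% in the next of 5 embryos. The SCNT 6-cell embryo of blastomere_55A had a block 10 relative coverage of 0.466, against 0.807 in the next of 5 embryos.

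Outside 2, 4 and 8 cells, 12 of 74 IVF blastomeres, from 6 of 18 embryos, lacked block 10 or 11. No SCNT blastomere of 20 such embryos did, which allows a share of up to 2.63% by an approximate upper limit, not the exact interval used above. The difference was not tested.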

How the results depend on the processing

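No paired analysis was possible because the groups compared share fewer than 2 replicate numbers. Over 38 results, 18 alternative values changed their side of the threshold or moved. No share or absence difference that passed changed sign. Spearman's rho of block 10 sisters, -0.312 at first, was 0.0317 without pairs in which a blastomere lacked the block. For called members only the counts were compared, and changes in their direction are given below. The block 10 share difference at 8 cells (-0.510) was -0.423 with at least 5000 calls (permutation test, adjusted p = 0.279), -0.691 with all rows of the block (adjusted p = 0.150) and -0.444 with complete embryos only (adjusted p = 0.270), and passed in none of these. The block 11 share difference at 2 cells (-0.632) passed only without blastomeres lacking the block (-0.941). Absence of block 10 at 2 cells (-14.6 percentage points) did not pass with at least 5000 calls (-20.4) or with all rows (-6.15). Sister correlations passed with at least 5000 calls (-0.527 and -0.566) and, in block 10, with prefix 15286 only (-0.348). Members called between types at 8 cells (0.333% of block 10 and 0.277% of block 11, 7 each) were 1.27% and 1.98% (1 and 2) when regions had to be open in at least 25% of embryos, against 7.66% of all regions, 0.0% and 0.01295% (0 and 1) with no filter, against 0.0252%, and 0.732% and 0.820% (15 and 17) without blastomeres lacking either block, against 2.11%. In block 10 these calls were 0 higher and 7 lower in SCNT at first and 1 higher and 0 lower at 25%. Members called between IVF 8- and 2-cell embryos (9.07% and 5.30%) were 2.53% and 4.95% (2 and 5) at 25%, where fewer members were tested, against 25.9% of all regions, and 6.05% in block 10 without blastomeres lacking either block, against 8.43%. Most calls were higher at 8 cells (8.17% of block 10 members against 0.903% lower), but at 25% all 2 and 5 were lower. Leaving out the SCNT 2-cell blastomere of highest block 10 share, and each embryo in turn, was added after the data had been seen. Causes of these changes were not tested. At the depth of these libraries 3 of 51 regions raised 4-fold were called in simulated data for SCNT against IVF at 8 cells. Other depths were not simulated, nor was the spread of block coverage between blastomeres of an embryo.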
